A study of Mus musculus with 48 samples.

Results

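Astrocytes of the newborn mouse olfactory bulb were compared with astrocytes of the newborn cortex. The comparison rests on 6 of the series' 48 RNA-seq libraries, 3 from olfactory bulb and 3 from cortex, all labelled postnatal day 1 (P1). The libraries were chosen by their region and age labels alone. Values are normalized reads, that is, reads per gene recovered from the deposited values and scaled to 1 common level over the 6 libraries. Differences are log2(normalized reads + 1) in olfactory bulb minus cortex, given with their standard error (SE), where 1 is a doubling, and the scale understates changes of low genes. A gene is called where the adjusted p of the limma test is under 0.05.

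The series profiled astrocytes of olfactory bulb, cortex and hippocampus at P1, P7 and P14, and P28 astrocytes of Gabbr1 control and conditional knockout mice. Besides the 6 P1 libraries, 3 P1 hippocampus libraries and 13 olfactory bulb and cortex libraries of P7 and P14 are used here for comparison. The labels of these libraries give the tissue, the cell type and the age, and no genotype, strain, sex or pooling. How the astrocytes were separated from the dissociated tissue is not given in the sources used here. No label says that the 3 libraries of a group came from separate animals, so the p-values measure the spread between these libraries, which may be technical.

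Astrocytes arise from radial glia, the stem cells that line the embryonic ventricles. Radial glia carry positional identity in the form of patterning transcription factors. EMX proteins mark the dorsal telencephalon. DLX, SP8 and GSX proteins mark the ventral telencephalon and the stem cells that supply olfactory bulb interneurons. In the first postnatal weeks astrocytes take up glutamate, GABA and potassium, secrete matrix and synapse-organising proteins and extend fine processes. The olfactory bulb receives new interneurons from the subventricular zone throughout life.

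The promoters of a pair of genes that were high in olfactory bulb and of a pair that were high in cortex are shown to give their sequence setting. Each is the 250 bases before the RefSeq start (GRCm38.p6), 5′ to 3′ on the gene's strand, with every CG step in capitals. Dlx1 and Dlx2, neighbouring homeobox genes that were higher together, hold 22 and 24 CG steps (a C followed by a G). Gfap and Gabbr2, both far lower in olfactory bulb, hold 2 and 37. The median over the windows of all tested genes was 15 CG steps, against 17 for genes called higher and 14 for genes called lower, and 98.7% of the tested genes' windows held at least 1 (CG reads the same on both strands). Of 13514 tested genes, 10213 matched the promoter table.
Dlx1, chr2:71529195-71529444, plus strand: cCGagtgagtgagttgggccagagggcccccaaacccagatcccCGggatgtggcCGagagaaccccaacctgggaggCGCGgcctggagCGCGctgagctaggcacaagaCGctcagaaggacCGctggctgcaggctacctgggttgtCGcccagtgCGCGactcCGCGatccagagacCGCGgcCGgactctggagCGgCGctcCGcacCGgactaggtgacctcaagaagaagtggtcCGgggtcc
Dlx2, chr2:71546755-71547004, minus strand: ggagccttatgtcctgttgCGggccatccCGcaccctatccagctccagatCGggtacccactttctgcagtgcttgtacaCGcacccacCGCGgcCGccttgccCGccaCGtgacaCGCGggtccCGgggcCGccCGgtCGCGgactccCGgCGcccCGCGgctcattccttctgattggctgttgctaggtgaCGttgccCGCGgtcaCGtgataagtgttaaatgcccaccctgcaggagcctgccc
Gfap, chr11:102897201-102897450, minus strand: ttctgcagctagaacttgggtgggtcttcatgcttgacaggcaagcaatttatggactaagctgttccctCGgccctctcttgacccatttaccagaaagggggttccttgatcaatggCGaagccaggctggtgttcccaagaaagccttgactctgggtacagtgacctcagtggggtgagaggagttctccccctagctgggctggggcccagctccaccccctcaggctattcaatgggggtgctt
Gabbr2, chr4:46991715-46991964, minus strand: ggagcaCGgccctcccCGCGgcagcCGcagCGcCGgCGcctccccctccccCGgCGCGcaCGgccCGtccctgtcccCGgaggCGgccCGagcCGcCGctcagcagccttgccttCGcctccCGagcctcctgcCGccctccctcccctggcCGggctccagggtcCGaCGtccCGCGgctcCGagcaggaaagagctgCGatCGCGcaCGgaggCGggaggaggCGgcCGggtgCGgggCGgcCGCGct

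The olfactory bulb libraries held 5473837 to 9062118 reads and the cortex libraries 14070691 to 14513455, of which the ribosomal precursor Rn45s took 22.2% to 27.1% and 19.4% to 26.7%. Correlations of log2 values over the tested genes were 0.972 to 0.975 within olfactory bulb, 0.948 to 0.976 within cortex and 0.831 to 0.867 between the regions. Cortex replicate 1 stood apart in genes of the brain's coverings and vessels: the meningeal fibroblast list (Dcn, Col1a1 and others) summed to 167 normalized reads there and to 4917 and 4097 in the other 2 cortex libraries. Without it 7813 genes were called, against 7716 with it. Olfactory bulb replicate 2 had 1028 normalized reads of Ddx3y, which lies on the Y chromosome, and 10.3 of Xist, which the inactive X transcribes, while the other 5 libraries held no Ddx3y and 12114 to 28566 of Xist. By these 2 genes that library was male and the other 5 were female, so the sexes are not balanced between the regions. Without olfactory bulb replicate 2, 6976 genes were called.

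The 2 regions differed widely at P1. Of 13514 tested genes, 7716 (57.1%) were called, 3763 (27.8%) higher in olfactory bulb and 3953 (29.3%) lower. The 3 libraries of one region lay entirely above those of the other for 8614 genes (63.7%). With at least a 2-fold difference as well, 1480 genes (11%) were called higher and 2370 (17.5%) lower. The shares of higher and lower genes depend on the common scale: with each deposited table left on its own scale, the median of all genes moved from -0.02 to -0.35 and 2030 genes were called higher against 5286 lower. Because so many genes are called, each list below is read against these shares.

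The genes that were highest in olfactory bulb against cortex were led by transcription factors. Tfap2e, which encodes the transcription factor AP-2 epsilon, had normalized reads of 407, 497 and 475 in olfactory bulb and 2.1, 6.3 and 0 in cortex, a log2 difference of 7.34 ± 0.57 SE, limma adjusted p 1.04e-06. Barhl2, a homeobox gene on the mitral and tufted cell marker list below, had 386, 566 and 405 in olfactory bulb. In cortex Barhl2 had 0, 5 and 4.7, a difference of 7.10 ± 0.58 SE, limma adjusted p 1.57e-06. Both were close to absent from cortex and similar across the 3 olfactory bulb libraries. With so few cortex reads the size of both differences depends on the processing. Over the settings run it was 5.47 to 8.67 for Tfap2e and 5.37 to 8.37 for Barhl2. Eomes, a T-box factor of intermediate progenitors and of mitral and tufted neurons, had 1905, 2783 and 2270 in olfactory bulb and 62.1, 33.4 and 68 in cortex (5.43 ± 0.24 SE, limma adjusted p 2e-08). The zinc finger genes Sp8 and Zic1 and the homeobox genes Dlx5 and Dlx2 were also among the 12 leading genes, with differences of 4.42, 4.32, 4.34 and 3.90. Leading genes that are not transcription factors were Frmd7, a FERM domain protein (4.97), the carboxypeptidase Cpm (4.49), the MAP kinase phosphatase Dusp4 (4.49) and the secreted glycoprotein Stc1 (4.08).

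The genes that were lowest in olfactory bulb were led by genes of differentiated astrocytes. Gfap, the astrocyte intermediate filament, had 6, 8.8 and 5.4 in olfactory bulb and 630, 1161 and 2195 in cortex, a difference of -7.27 ± 0.38 SE, limma adjusted p 5.44e-08. The 3 cortex libraries spread widely, and the lowest of them still lay far above all 3 olfactory bulb libraries. Dio2, the deiodinase that makes active thyroid hormone, had 81.9, 129 and 125 in olfactory bulb and 5393, 7693 and 9802 in cortex (-6.06 ± 0.22 SE, limma adjusted p 5.32e-09). Sparc, a secreted matrix protein that limits synapse formation, had 305, 208 and 159 in olfactory bulb and 8548, 8379 and 10088 in cortex (-5.37 ± 0.19 SE, limma adjusted p 5.32e-09). The olfactory bulb levels of these 3 genes did not overlap the cortex levels. Further leading genes on this side were the serine protease Htra1 (-6.07), the nuclear receptor Nr2f1 (-5.40), Ccdc80 (-5.30), the adaptor Sla (-5.22), the glycogen-targeting subunit Ppp1r3c (-5.21), Scrg1 (-4.91), the growth factor receptor Fgfr3 (-4.80) and the secreted IGF-binding protein Igfbp5 (-4.76). In bulk libraries such as these, fewer cells of a type and less RNA per cell cannot be told apart.

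Ventral forebrain and olfactory bulb patterning factors were higher in olfactory bulb as a group. Of 26 tested members, 22 were called higher and 2 lower, with a median difference of 2.99 (all genes -0.02). Sp8 had 1742, 1654 and 1855 in olfactory bulb and 114, 73 and 64 in cortex (4.42 ± 0.19 SE, limma adjusted p 1.75e-08). Dlx1, whose promoter is shown above, had 3851, 2380 and 2691 in olfactory bulb and 378, 171 and 177 in cortex (3.69 ± 0.27 SE, limma adjusted p 6.66e-07). Dlx2 had 1779, 1371 and 1585 in olfactory bulb and 140, 105 and 78 in cortex (3.90 ± 0.19 SE, limma adjusted p 4.02e-08). In each of these genes the lowest olfactory bulb library was several times the highest cortex library. Pbx3, a homeobox cofactor, had 8987, 5777 and 6614 in olfactory bulb and 876, 587 and 563 in cortex (3.40 ± 0.19 SE, limma adjusted p 8.02e-08), and the ETS factor Etv1 had 12264, 11787 and 10625 in olfactory bulb and 1434, 1306 and 1473 in cortex (3.04 ± 0.10 SE, limma adjusted p 4.02e-09). Sp9, Dlx6, Vax1, Zic4, Tshz1 and Meis2 were higher by 3.32, 3.18, 3.59, 2.95, 2.89 and 1.84. Prokr2, the receptor that guides neuroblasts into the bulb, was higher by 3.49.

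The 2 ventral factors called lower in olfactory bulb were Six3 and Tshz2. Six3, a homeobox gene of the anterior forebrain and striatum, had 0, 1.5 and 0 in olfactory bulb and 101, 77.4 and 32 in cortex, at least 15.7-fold lower against a floor of 3 reads per library (adjusted p 3.06e-05). Tshz2 had 169, 170 and 224 in olfactory bulb and 235, 469 and 437 in cortex (-0.97 ± 0.24 SE, limma adjusted p 0.00467). Tshz3 did not pass the test, with a difference of -0.38, and Gsx1, Isl1 and Nkx2-1 were too low to be tested. The GABA interneuron markers, which share this origin, summed to 6603 to 8169 in olfactory bulb and 1443 to 2483 in cortex, and the part of such cells in the higher factor levels was not tested. Gad2, the GABA-synthesising enzyme, was the largest part of the olfactory bulb sums. It had 4860, 4373 and 5345 in olfactory bulb and 1098, 813 and 545 in cortex (2.62 ± 0.20 SE, limma adjusted p 9.11e-07). The sum does not describe the list as a whole, in which 6 of 11 tested members were called higher and 5 lower.

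**Figure D1:**
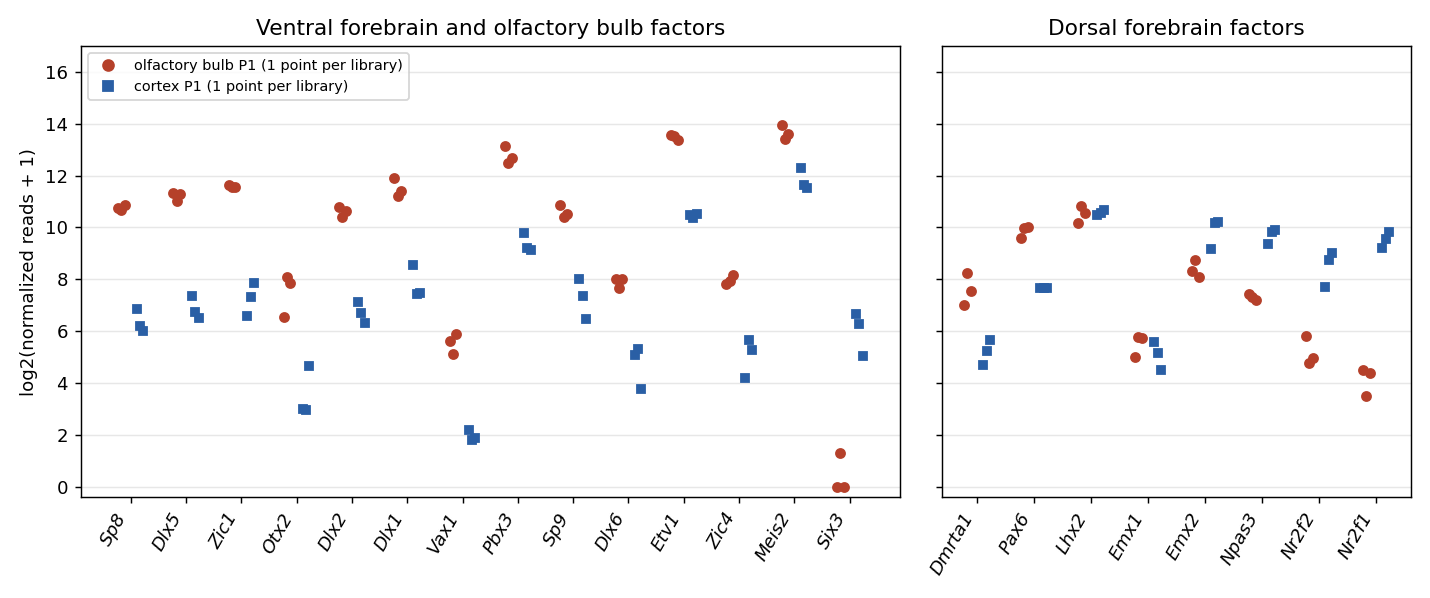
Levels of patterning factors in the 6 P1 libraries, as log2(normalized reads + 1) on the vertical axis, with 1 circle per olfactory bulb library and 1 square per cortex library. Sp8 to Meis2 lie higher in olfactory bulb and Six3 lies lower, while the genes shown from the dorsal list run from Dmrta1 (higher by 2.38) to Nr2f1 (lower, -5.40).

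Dorsal forebrain factors were divided. Of 18 tested, 5 were called higher in olfactory bulb and 6 lower, with a median of 0.02, so that both shares were near those of all tested genes (27.8% and 29.3%). The COUP-TF (Nr2f) genes, which were counted in this list, were lower. Nr2f1 had 21.7, 10.3 and 19.7 in olfactory bulb and 587, 743 and 900 in cortex (-5.40 ± 0.28 SE, limma adjusted p 5.1e-08). Nr2f2 differed by -3.29, limma adjusted p 1.08e-05. Emx2 had 318, 433 and 272 in olfactory bulb and 573, 1146 and 1194 in cortex (-1.46 ± 0.26 SE, limma adjusted p 0.000454), and Npas3, a basic helix-loop-helix factor, had 173, 158 and 145 in olfactory bulb and 667, 900 and 951 in cortex (-2.38 ± 0.16 SE, limma adjusted p 2.99e-07). On the other side Pax6, a factor of dorsal progenitors and of some olfactory bulb neurons, had 780, 1013 and 1024 in olfactory bulb and 205, 205 and 201 in cortex (2.19 ± 0.13 SE, limma adjusted p 1.93e-07). Dmrta1 was higher by 2.38, a call that was lost in the fit of the 19 libraries of 3 ages. Groups did not overlap in any of these 6 genes. Lhx2, Emx1, Otx1, Tcf4 and Zbtb20 did not pass the test, with differences of -0.06, 0.42, -0.15, 0.09 and 0.17.

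Transcription factors shared by astrocytes of both regions were mostly lower in olfactory bulb, 10 of 17 tested against 2 higher, median -0.92. Nfix, a nuclear factor I gene that drives astrocyte differentiation, had 1431, 1343 and 1325 in olfactory bulb and 8269, 7085 and 8405 in cortex (-2.53 ± 0.10 SE, limma adjusted p 1.04e-08), and its relative Nfia had 3910, 4892 and 4403 in olfactory bulb and 8610, 8605 and 9950 in cortex (-1.04 ± 0.11 SE, limma adjusted p 1.07e-05). Nfib did not follow, with a difference of 0.24, adjusted p 0.0962. Sox9, the factor most widely used to identify astrocytes, had 944, 1450 and 1320 in olfactory bulb and 1218, 1587 and 1604 in cortex and did not pass the test (-0.26 ± 0.16 SE, limma adjusted p 0.192). Its olfactory bulb and cortex levels overlapped. Olig2 differed by -2.31, Glis3 by -1.84 and the Notch target Hes5 by -2.49, and Id4 was higher by 1.21.

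Radial glia and progenitor genes were lower in 11 of 19 tested (57.9%, all genes 29.3%) and higher in 4 (21.1%, all genes 27.8%). Fabp7, the brain lipid-binding protein of radial glia and young astrocytes, had 10383, 10674 and 8673 in olfactory bulb and 72024, 61008 and 74665 in cortex (-2.81 ± 0.12 SE, limma adjusted p 1.89e-08). Nes, an intermediate filament of progenitors, had 1429, 1723 and 1325 in olfactory bulb and 7001, 9241 and 12198 in cortex (-2.64 ± 0.17 SE, limma adjusted p 3.19e-07). Vim, another, had 1351, 1679 and 1305 in olfactory bulb and 3181, 4233 and 5031 in cortex (-1.51 ± 0.16 SE, limma adjusted p 1.02e-05). None of the 3 genes overlapped between the regions. Tnc and Ptprz1, matrix and receptor genes of outer radial glia, differed by -1.35 and -1.13. The 4 higher members were Pax6, the proliferation gene Mki67 (0.78), Cdh2 (0.76) and Sox2 (0.56), and the call of Sox2 was lost on the deposited scale.

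Astrocyte markers were lower in olfactory bulb almost throughout, 26 of 29 tested against 1 higher, median -2.46. Their summed level was 27510 to 36770 in olfactory bulb and 105800 to 137000 in cortex, so that every library held reads of the labelled cell type's markers. Markers of another cell type were also abundant in the olfactory bulb libraries. The pan-neuronal list summed to 64870 to 79650 there, against 31070 to 41440 in cortex. The neuronal gene Dcx, with 44836, 34323 and 37276, was the largest part of the olfactory bulb sums. The median difference of the list was 0.06, with 6 of 15 tested higher and 5 lower. The part of neuronal RNA in the astrocyte marker differences was not tested. Aldh1l1, a folate enzyme used as a pan-astrocyte marker, had 621, 657 and 568 in olfactory bulb and 1767, 1861 and 2012 in cortex (-1.61 ± 0.11 SE, limma adjusted p 3.03e-07). Aqp4, the water channel of astrocyte endfeet, had 354, 440 and 475 in olfactory bulb and 3253, 4617 and 5313 in cortex (-3.36 ± 0.17 SE, limma adjusted p 5.1e-08). The olfactory bulb level of Aqp4 was a small part of the cortex level. The lipid carrier Apoe had 476, 826 and 460 in olfactory bulb and 6298, 5894 and 5729 in cortex (-3.40 ± 0.19 SE, limma adjusted p 8.06e-08). The chaperone-like lipoprotein Clu had 45.7, 70.4 and 59.1 in olfactory bulb and 1373, 1621 and 1581 in cortex (-4.70 ± 0.17 SE, limma adjusted p 5.32e-09). The sizes were unequal: Slc1a3, the glutamate transporter GLAST, differed by -0.56, adjusted p 0.012, a call that was lost without olfactory bulb replicate 1. Gpc5 and Gjb6 did not pass the test, with -0.41 and 1.15. Grin2c, a glutamate receptor subunit, was the member called higher, at low levels (21.7, 22 and 25.1 in olfactory bulb and 7.1, 6.9 and 5.3 in cortex, difference 1.69).

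Genes for GABA receptors and GABA handling were lower in 13 of 19 tested and higher in 1, median -0.93. The metabotropic GABA-B receptor, a heterodimer of the Gabbr1 and Gabbr2 products, was lower in both subunits. Gabbr1 had 2006, 1711 and 1590 in olfactory bulb and 3138, 2882 and 2807 in cortex, a difference of -0.74 ± 0.11 SE, limma adjusted p 0.000132. Gabbr2 had 42.1, 55.7 and 64.5 in olfactory bulb and 906, 964 and 1111 in cortex, a difference of -4.19 ± 0.18 SE, limma adjusted p 1.68e-08. Neither gene overlapped between the regions, and the Gabbr1 difference stayed under 2-fold. The GABA transporter gene Slc6a11 (GAT-3) had 1748, 2814 and 2396 in olfactory bulb and 3566, 3719 and 3825 in cortex (-0.70 ± 0.15 SE, limma adjusted p 0.00168). The degrading enzymes Abat and Aldh5a1 differed by -0.96 and -1.17.

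Among the ionotropic GABA-A subunits, Gabra5 had 108, 48.4 and 68 in olfactory bulb and 247, 266 and 316 in cortex (-1.94 ± 0.26 SE, limma adjusted p 6.35e-05). Gabrb1, Gabrb2, Gabra2 and Gabrg1, the last a subunit found in glia, were lower, with differences of -1.88, -1.49, -1.34 and -1.62. Gabra3 and Gabra4 did not pass the test, with -0.29 and -0.42, and Gabrd had too few reads to be tested. The Gabra5 call was lost in the fit of the 19 libraries of 3 ages.

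Glutamate and potassium handling genes were lower in 12 of 20 tested and higher in 3, median -1.89. The metabotropic glutamate receptors of astrocytes were far lower. Grm3 had 184, 179 and 195 in olfactory bulb and 3008, 3506 and 4033 in cortex (-4.22 ± 0.12 SE, limma adjusted p 2.66e-09). Grm5 had 129, 106 and 100 in olfactory bulb and 1952, 2090 and 1943 in cortex (-4.16 ± 0.13 SE, limma adjusted p 3.62e-09). The main astrocyte glutamate transporter Slc1a2 (GLT-1) had 6217, 8216 and 6584 in olfactory bulb and 27304, 36439 and 35263 in cortex (-2.24 ± 0.14 SE, limma adjusted p 2.1e-07). The potassium channel Kcnj10 (Kir4.1) had 300, 393 and 338 in olfactory bulb and 2416, 2907 and 3178 in cortex (-3.04 ± 0.14 SE, limma adjusted p 2.05e-08). All 4 were separated without overlap. Glutamine synthetase (Glul) differed by -1.51 and glutamate dehydrogenase (Glud1) by -2.51. The AMPA receptor subunit Gria1 and the sodium pump subunit Atp1b1, both also neuronal, were higher by 1.35 and 0.72, and Gria2 and Gria4 did not pass the test (-0.03 and -0.09).

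**Figure D2:**
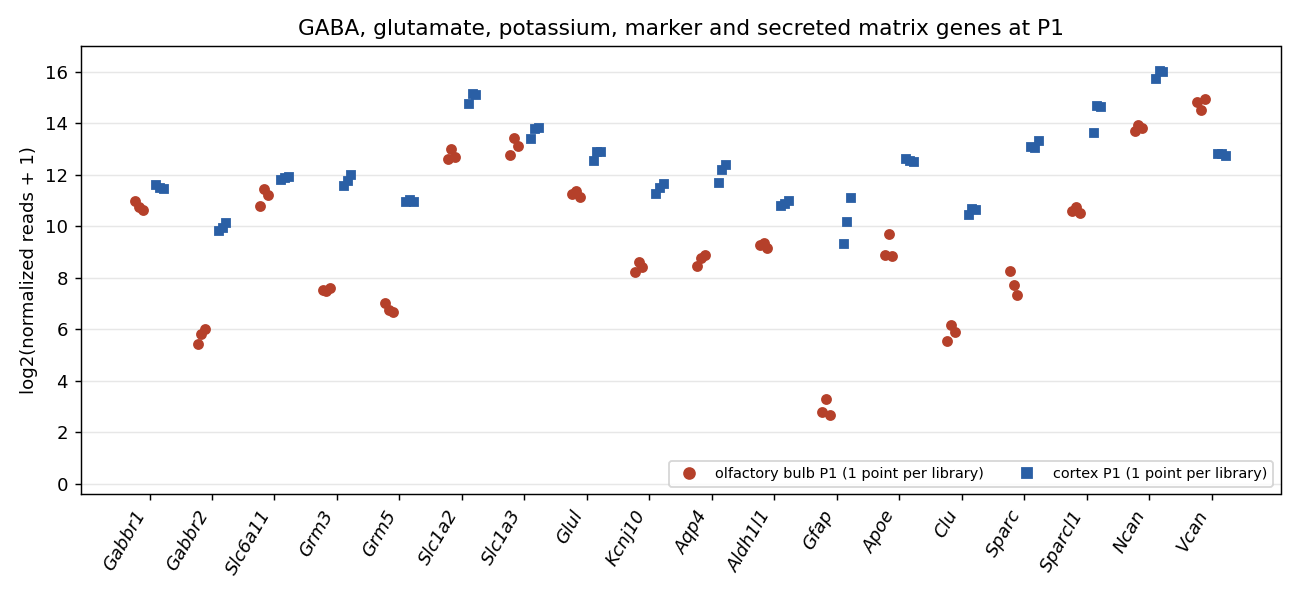
Levels of astrocyte genes in the 6 P1 libraries, as log2(normalized reads + 1), with 1 circle per olfactory bulb library and 1 square per cortex library. Gabbr1 and Slc1a3 lie close between the regions, Gabbr2, Grm3, Grm5, Clu, Sparc and Gfap lie far apart, and Vcan lies higher in olfactory bulb.

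Secreted synapse and matrix genes were lower in 18 of 22 tested and higher in 2, median -1.69. Sparcl1 (hevin), which promotes synapse formation, had 1554, 1733 and 1472 in olfactory bulb and 12622, 25809 and 25379 in cortex (-3.67 ± 0.22 SE, limma adjusted p 1.75e-07), and its antagonist Sparc was among the leading genes. The lectican Ncan had 13183, 15492 and 14553 in olfactory bulb and 53362, 66843 and 65297 in cortex (-2.10 ± 0.12 SE, limma adjusted p 1.1e-07), Bcan differed by -3.23 and the link protein Hapln1 by -4.18. Their relative Vcan went the other way, with 29148, 23404 and 31332 in olfactory bulb and 7209, 7109 and 6823 in cortex (1.98 ± 0.12 SE, limma adjusted p 1.5e-07). Neither Ncan nor Vcan overlapped between the regions. The glypicans Gpc4 and Gpc6 differed by -1.20 and -1.49, and Thbs1 by -2.91.

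Regulators of astrocyte shape were lower in 12 of 16 tested and higher in 2, median -0.74. Hepacam, an adhesion protein that shapes astrocyte territories, had 365, 623 and 568 in olfactory bulb and 2312, 2998 and 3181 in cortex (-2.47 ± 0.19 SE, limma adjusted p 8.86e-07). The gap junction gene Gja1 had 325, 254 and 267 in olfactory bulb and 624, 991 and 1051 in cortex (-1.63 ± 0.19 SE, limma adjusted p 2.07e-05). The regions did not overlap in either gene. Ednrb, Ezr and Fermt2 differed by -1.77, -1.23 and -1.42. The neuroligin gene Nlgn1 differed by -0.84, and Nlgn3 did not pass the test (-0.16). Dlg1 and Cdh2 were higher by 0.97 and 0.76.

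**Figure D3:**
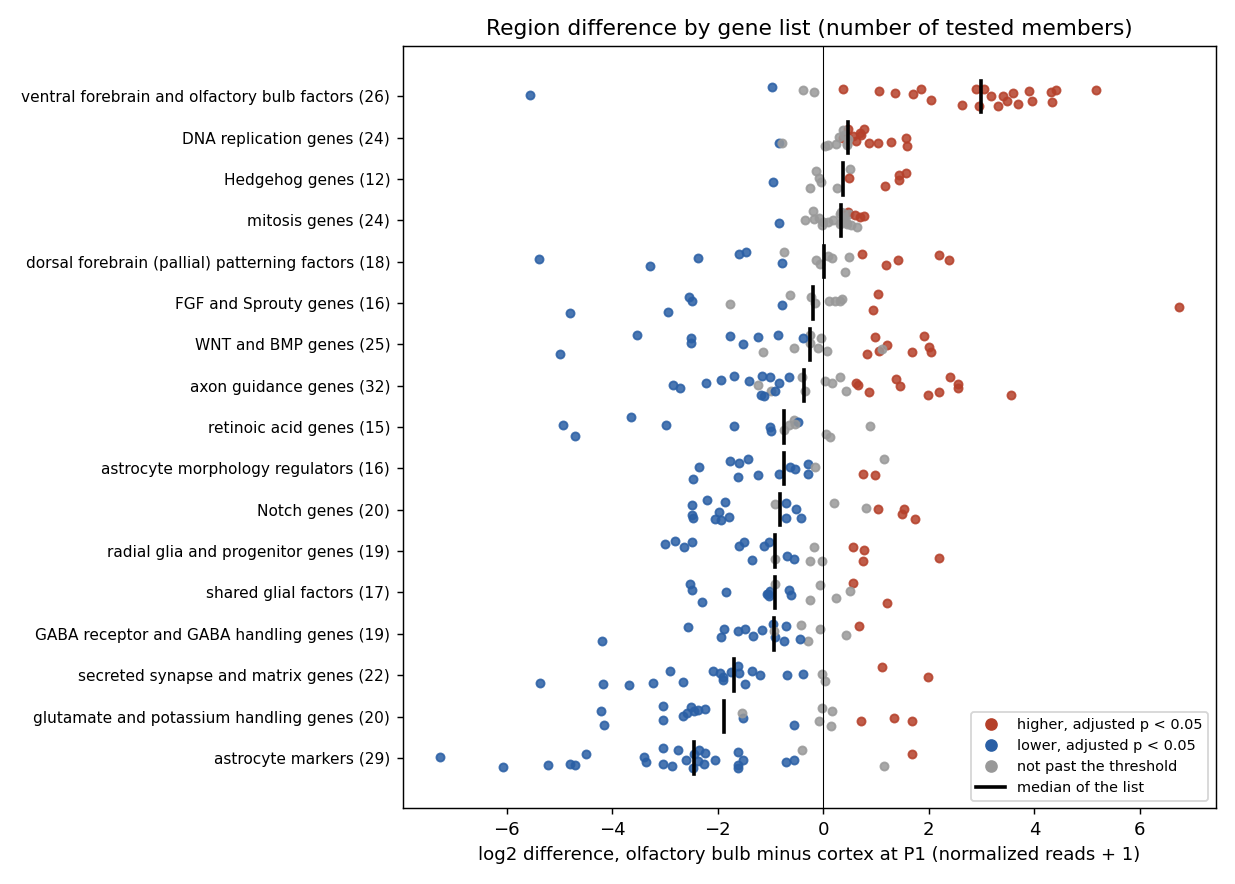
Log2 difference of every tested member of the biology lists and the astrocyte markers, olfactory bulb minus cortex at P1, with 1 dot per gene, coloured by direction where called and grey otherwise, and a bar at each list's median. The ventral factors have the highest median (2.99) and the astrocyte markers the lowest (-2.46).

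FGF signals pattern the anterior telencephalon, and their genes were divided, 3 of 16 tested higher and 5 lower, shares not far from those of all genes. Among ligands, Fgf15 had 123, 189 and 179 in olfactory bulb and 0, 2.5 and 0 in cortex (limma adjusted p 1.94e-06), with too few cortex reads for a fold, while Fgf1 had 75.8, 60.1 and 75.2 in olfactory bulb and 370, 429 and 391 in cortex (-2.48 ± 0.17 SE, limma adjusted p 3.46e-07). Among receptors, Fgfr3 had 42.1, 26.4 and 25.1 in olfactory bulb and 697, 985 and 974 in cortex (-4.80 ± 0.22 SE, limma adjusted p 2.73e-08), and Fgfr1 and Fgfr2 did not pass the test (-0.16 and 0.10). The FGF target genes Etv4 and Etv5 differed by -2.94 and -0.77, and the feedback inhibitor Spry4 was higher by 0.94.

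WNT and BMP genes were also divided, 8 of 25 tested higher and 9 lower, again near the shares of all genes. Among ligands Wnt7a and Wnt5a were higher (1.99 and 1.91), and Wnt7b had 15.6, 24.9 and 16.1 in olfactory bulb and 214, 238 and 221 in cortex (-3.53 ± 0.25 SE, limma adjusted p 5.34e-07). Among receptors Fzd8 and Fzd2 were higher (2.05 and 1.68), and the BMP receptors Bmpr1a and Bmpr1b were lower (-0.86 and -2.51). Lef1, a nuclear effector of WNT signals, had 20.5, 1.5 and 0 in olfactory bulb and 99.9, 121 and 140 in cortex (-5.00 ± 0.86 SE, limma adjusted p 0.000404). The BMP targets of the ID family were divided. Id3 differed by -1.77, and Id1 was lower (-1.71 to -0.87 over the settings run), with a call that changed with the setting. Id2 and Id4 were higher (0.59 to 1.16 and 0.82 to 1.41 over the settings run). Axin2, a common WNT target, did not pass the test (0.08).

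Of 12 Hedgehog genes tested, 5 were higher (41.7%, all genes 27.8%) and 1 lower (8.33%, all genes 29.3%). The surface co-receptor Cdon had 909, 1411 and 1506 in olfactory bulb and 475, 326 and 483 in cortex (1.56 ± 0.20 SE, limma adjusted p 4.53e-05). Gas1, another co-receptor, had 367, 587 and 535 in olfactory bulb and 232, 185 and 233 in cortex (1.17 ± 0.18 SE, limma adjusted p 0.000196). Smo, the signal transducer, was the member called lower (-0.95). The pathway targets Gli1 and Ptch1 did not pass the test (0.26 and -0.08). On the deposited scale 4 Hedgehog genes were called lower and 4 higher.

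Notch genes were lower in 13 of 20 tested (65%, all genes 29.3%) and higher in 4 (20%, all genes 27.8%). The ligand Jag1 and the nuclear effector Rbpj were higher (1.52 and 1.04), whereas the receptor Notch3 had 48.2, 79.2 and 46.6 in olfactory bulb and 345, 320 and 288 in cortex (-2.47 ± 0.22 SE, limma adjusted p 2.96e-06). Target genes of the pathway were lower, among them Hey1 with 126, 139 and 78.8 in olfactory bulb and 402, 451 and 481 in cortex (-1.98 ± 0.21 SE, limma adjusted p 9.14e-06), Nrarp (-2.05) and Hes5 (-2.49). Hes1 did not pass the test (-0.92). In the fit of 19 libraries 1 Notch gene was called higher and 9 lower. Of 15 retinoic acid genes tested, 8 were lower (53.3%, all genes 29.3%) and 0 higher (all genes 27.8%). Aldh1a1, a retinoic acid-synthesising enzyme, had 1.2, 0 and 0 in olfactory bulb and 20.7, 46.6 and 60 in cortex, at least 9.51-fold lower against the floor, and the reductase Dhrs3 1.2, 2.9 and 0 in olfactory bulb and 47.8, 53.5 and 56 in cortex, at least 11.8-fold lower. The receptor Rxrg differed by -3.64.

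Axon guidance genes differed in both directions, 11 of 32 tested higher (34.4%, all genes 27.8%) and 13 lower (40.6%, all genes 29.3%). Their median difference was -0.37. Their summed level was 49250 to 51250 in olfactory bulb and 25470 to 26410 in cortex. In olfactory bulb Robo2, Dcc and Efnb2 held more reads than any other member, so the sum does not describe the list as a whole. Dcc, the netrin receptor, had 9473, 12753 and 11470 in olfactory bulb and 1041, 881 and 942 in cortex (3.55 ± 0.12 SE, limma adjusted p 4.79e-09). Robo2, a Slit receptor, had 13286, 11455 and 11739 in olfactory bulb and 3055, 2501 and 2417 in cortex (2.20 ± 0.11 SE, limma adjusted p 5.37e-08). Both are receptors of growing axons and migrating neurons, and neither overlapped. Efna5, Efnb2 and Sema5a were higher by 2.55, 2.55 and 1.98. On the lower side were Ephb1, with 99.9, 51.3 and 102 in olfactory bulb and 681, 543 and 552 in cortex (-2.85 ± 0.24 SE, limma adjusted p 1.95e-06), Sema3c (-2.22), Nrp1 (-1.93) and Epha7 (-1.70). Pan-neuronal markers also differed in summed level, 64870 to 79650 in olfactory bulb and 31070 to 41440 in cortex, with a median difference of 0.06. Their part in the axon guidance differences was not tested.

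DNA replication genes were higher in 13 of 24 tested (54.2%, all genes 27.8%) and lower in 1 (4.17%, all genes 29.3%), median 0.47. The replicative helicase gene Mcm7 had 439, 546 and 584 in olfactory bulb and 260, 202 and 185 in cortex (1.28 ± 0.16 SE, limma adjusted p 4.54e-05), Ccne2 was higher by 1.56 and Cdc6 by 1.58. Mitosis genes were higher in 4 of 24 (16.7%) and lower in 1 (4.17%), both under the shares of all genes (27.8% and 29.3%). Mki67 had 2366, 2978 and 2684 in olfactory bulb and 1666, 1247 and 1802 in cortex (0.78 ± 0.14 SE, limma adjusted p 6e-04), and Top2a and Cenpf did not pass the test (0.32 and -0.03). On the deposited scale 4 replication genes and 1 mitosis gene were called higher and 3 mitosis genes lower, and in the fit of 19 libraries 2 replication genes and 0 mitosis genes were called higher. The mitosis count ran from 2 without olfactory bulb replicate 2 or cortex replicate 2 to 8 without cortex replicate 3.

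Markers of other cells differed as well. Of 15 pan-neuronal markers 6 were higher (40%) and 5 lower (33.3%), with a median of 0.06 and the sums given above. Dcx, the microtubule protein of migrating neurons, had 44836, 34323 and 37276 in olfactory bulb and 15235, 9173 and 10861 in cortex (1.75 ± 0.17 SE, limma adjusted p 6.07e-06), whereas Gap43 of growing axons had 419, 315 and 253 in olfactory bulb and 1356, 1221 and 1261 in cortex (-1.99 ± 0.16 SE, limma adjusted p 1.58e-06). Mitral and tufted cell markers, the projection neurons of the bulb, summed to 6144 to 8665 in olfactory bulb and 1843 to 2086 in cortex. Of 8 tested, 5 were higher, among them the leading genes Barhl2 and Eomes, and 2 lower. Slc17a6 (VGLUT2), a glutamate transporter of their vesicles, had 931, 1474 and 1529 in olfactory bulb and 276, 253 and 187 in cortex (2.44 ± 0.20 SE, limma adjusted p 1.51e-06). The lower members were Reln, a secreted guidance protein (-1.75), and Slc17a7 (VGLUT1), with 2.4, 4.4 and 1.8 in olfactory bulb and 84.2, 65.5 and 61.3 in cortex, at least 15.8-fold lower against the floor of 3 reads per library. Tbx21, which defines these neurons, was too low to be tested. Cortical excitatory lineage markers were higher in 9 of 14 and lower in 4. Neurod1 was higher by 2.97 and Tbr1 by 2.00. The lower members included Slc17a7, Cux2 (-2.5 to -1.85 over the settings run) and Bhlhe22 (-3.34 to -2.8). By the fit of 19 libraries 5 cortical excitatory markers and 2 mitral and tufted cell markers were called higher, and the calls of Tbr1 and Slc17a6 were lost.

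GABA interneuron markers were divided, 6 of 11 tested higher and 5 lower. Calb2 and Synpr, found in bulb interneurons, were higher by 3.75 and 3.69. Lhx6, the factor of cortical interneurons from the medial ganglionic eminence, had 0, 0 and 0 in olfactory bulb and 335, 227 and 215 in cortex, at least 58.1-fold lower against the floor of 3 reads per library. Sst, a peptide of those interneurons, had 9.6, 8.8 and 9 in olfactory bulb and 122, 74.9 and 110 in cortex (-3.32 ± 0.33 SE, limma adjusted p 6.4e-06). Npy, another, had 57.8, 26.4 and 21.5 in olfactory bulb and 267, 183 and 187 in cortex (-2.67 ± 0.33 SE, limma adjusted p 3.82e-05). How much neuronal RNA contributes to the region differences of single genes was not tested.

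Markers of oligodendrocyte precursors and microglia were lower in olfactory bulb. All 10 of 10 tested oligodendrocyte precursor markers were called lower (sums 689 to 887 in olfactory bulb and 3764 to 4077 in cortex), led by Olig1 with 119, 142 and 115 in olfactory bulb and 1898, 1698 and 1897 in cortex (-3.86 ± 0.13 SE, limma adjusted p 4.02e-09). All 14 of 14 tested microglia markers were lower (sums 167 to 276 in olfactory bulb and 1564 to 2469 in cortex), with a median of -4.22, or -3.84 with genes at the floor set to their bound. Cx3cr1 had 3.6, 1.5 and 1.8 in olfactory bulb and 94.2, 217 and 206 in cortex, at least 38.6-fold lower against the floor (limma adjusted p 1.27e-06), and Trem2 had no read in olfactory bulb. Endothelial and mural markers were lower in 10 of 14, and in 15 without cortex replicate 1, whose sum of 383 lay with olfactory bulb (364 to 402), but in 4 without cortex replicate 2 or 3. No meningeal fibroblast marker of 12 was called by limma (0 at an unadjusted p under 0.05), against 7 lower without cortex replicate 1.

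Markers of olfactory ensheathing cells, glia of the olfactory nerve, summed to 761 to 1091 in olfactory bulb and 602 to 687 in cortex. Of 9 tested ensheathing cell markers, 5 were higher (55.6%, all genes 27.8%) and 2 lower (22.2%, all genes 29.3%). Their defining marker Foxd3 was too low to be tested, as was Omp, which defines olfactory receptor neurons. Of 6 tested receptor neuron markers 2 were higher and 2 lower, of 9 mature oligodendrocyte markers 2 and 2, and of 3 choroid plexus and ependymal markers 0 and 2. The receptor neuron shares (33.3% each way) and mature oligodendrocyte shares (22.2% each way) were near those of all genes (27.8% and 29.3%). These small counts depend on single libraries: 0 mature oligodendrocyte markers were called higher without olfactory bulb replicate 1 or cortex replicate 1, and 0 choroid plexus and ependymal markers lower without cortex replicate 2 or 3. The higher count of the ensheathing cell list was 3 without olfactory bulb replicate 1 or cortex replicate 1. The 1 tested red blood cell marker was lower, and of 5 sex chromosome genes 0 passed the limma test (0 at an unadjusted p under 0.05). The part of these cells in the region differences was not tested.

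**Figure D4:**
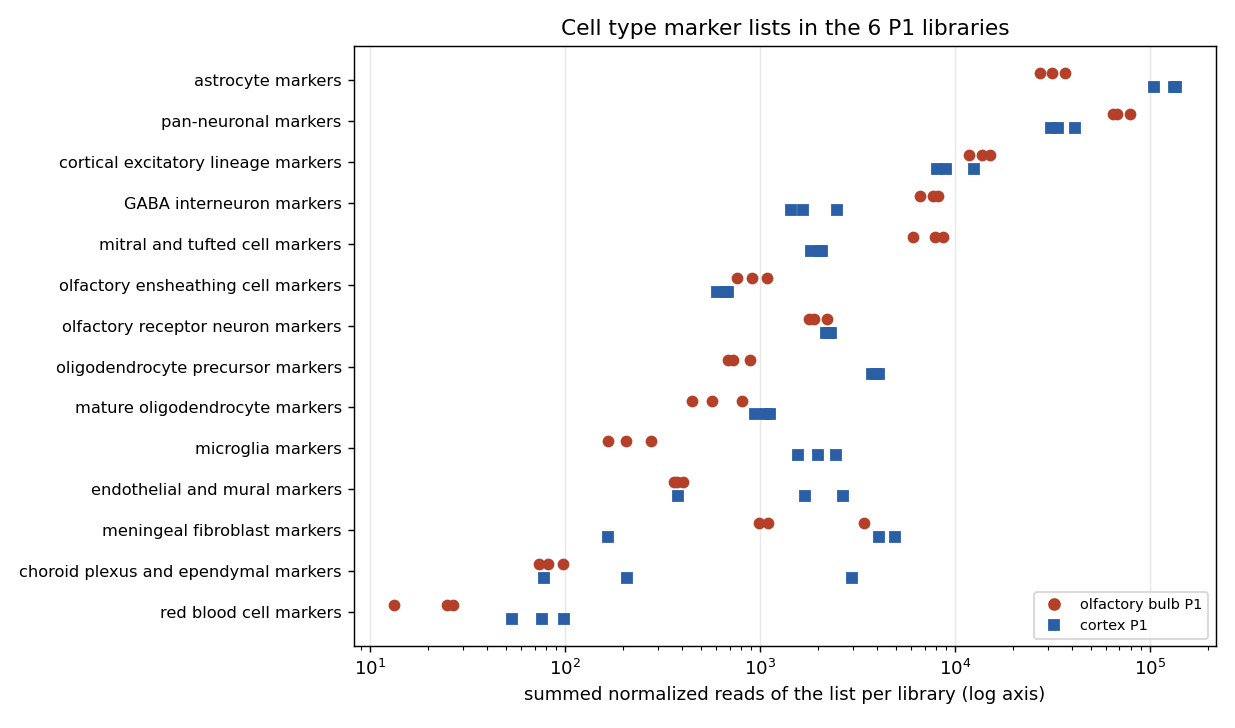
Summed normalized reads of each cell type marker list per P1 library, on a log axis, with circles for olfactory bulb and squares for cortex. Astrocyte, precursor and microglia sums lie lower in olfactory bulb, pan-neuronal, interneuron and mitral and tufted sums lie higher, and the meningeal, endothelial and choroid sums of the 3 cortex libraries lie far apart.

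The 3 P1 hippocampus libraries show which differences set the olfactory bulb apart from that region too. They were tested in a fit of 9 P1 libraries, in which 4350 of 13373 genes (32.5%) were called between olfactory bulb and hippocampus, and 6190 (46.3%) between hippocampus and cortex. The olfactory bulb libraries are shared with the comparison above. Sp8 had 103, 53.6 and 80 normalized reads in hippocampus on that scale, and the olfactory bulb minus hippocampus difference was 4.33, adjusted p 3.14e-09. Nr2f1 had 804, 1083 and 833 (-5.86, adjusted p 2.28e-10), and Gfap 847, 519 and 790 (-6.69, adjusted p 1.2e-09). The olfactory bulb minus cortex differences of the 3 genes were 4.42, -5.40 and -7.27. Eomes had 1763, 2035 and 1500, a difference of 0.21, adjusted p 0.512, and Sla differed by 0.58, adjusted p 0.46. Neither gene separated olfactory bulb from hippocampus by the test. The pan-astrocyte marker Aldh1l1 (0.02, adjusted p 0.91) and Glul (-0.22, adjusted p 0.311) did not separate them either. Gabbr1 had 1112, 1050 and 1053, so that olfactory bulb lay above hippocampus (0.54, adjusted p 0.00182) and below cortex, whereas Gabbr2 was lower in olfactory bulb than in hippocampus (-2.16, adjusted p 4.15e-07).

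Libraries of P7 and P14 share none with P1 and were fitted with them on 1 scale of 19 libraries. The P14 olfactory bulb libraries were shallow, 1773226 to 2669394 reads, and correlated among themselves at 0.839 to 0.846. At P7, 4529 of 12831 genes (35.3%) were called between the regions, and at P14 5755 (44.9%). Of 3662 genes higher in olfactory bulb at P1 and tested at both ages, 1631 (44.5%) were called higher at P7 and 70 (1.91%) lower, against 16.8% higher among all genes. At P14 1470 (40.1%) were called higher and 313 (8.55%) lower, against 20.5% of all genes. Of 3774 genes lower at P1, 1770 (46.9%) were called lower at P7 and 1603 (42.5%) at P14, against 18.7% and 24.3% of all genes, and 382 (10.1%) were called higher at P14. Read from the later lists, 76.9% of the P7 higher genes and 56.7% of the P14 higher genes were called higher at P1. Of the P7 and P14 lower genes, 75.1% and 52.1% were called lower at P1, where 27.8% of all genes were called higher and 29.3% lower.

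The change of the region difference itself was called for 953 genes (7.43%) between P1 and P7, upward in olfactory bulb for 3.97% and downward for 3.46%, and for 3254 (25.4%) between P1 and P14. The P7 count depends on single libraries, and was 597 without P1 olfactory bulb replicate 2, 635 without P1 cortex replicate 2 and 566 without P7 cortex replicate 2. Among ventral factors, 18 of 24 were called higher in olfactory bulb at P7 and 18 at P14, against 16.6% and 20.4% of all tested genes. Astrocyte markers were lower in 28 of 29 at P7 and in 22 at P14, with medians of -2.31 and -0.88, and 21 of the 29 moved upward from P1 to P14 by the interaction test (14.5% of all genes did). Radial glia genes, lower in 11 at P1, were higher in 11 of 19 at P14 and lower in 1. Mitosis genes were higher in 18 of 24 at P14.

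The region difference of Gabbr1 widened and that of Gabbr2 narrowed. In olfactory bulb Gabbr1 had 1148, 991 and 944 at P1, 1063, 954 and 1036 at P7 and 1158, 864 and 1141 at P14. In cortex it had 1903, 1739 and 1655, then 4756, 4424 and 4341, then 7956, 8700, 7737 and 8990. The olfactory bulb libraries of the 3 ages overlapped while every cortex library lay above those of the age before, and the region difference moved from P1 to P14 by -2.21 ± 0.16 SE, adjusted p 9.29e-09. Gabbr2 had 24.1, 32.3 and 38.3 in olfactory bulb at P1, 343, 225 and 151 at P7 and 1244, 1929 and 1258 at P14. In cortex Gabbr2 had 550, 582 and 655 at P1, 2026, 2062 and 1981 at P7 and 3479, 4749, 3359 and 4383 at P14. It rose with age in both regions, and the region difference changed by 2.77 ± 0.32 SE, adjusted p 3.56e-06.

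For 620 genes, predicted genes left out, the regions were called in opposite directions at P1 and P14, with a called interaction and no overlap at P1. Of these, 276 went from higher to lower and 344 from lower to higher. The 6-library and 19-library fits shared 12638 genes, predicted genes included. Fabp7 went from 5944, 6180 and 5152 in olfactory bulb and 43674, 36812 and 44016 in cortex at P1 to 30019, 21802 and 22217 and 4961, 5890, 5897 and 6665 at P14. Aqp4 went from 203, 255 and 282 and 1973, 2786 and 3132 to 35251, 32490 and 28957 and 15917, 16129, 15234 and 16896. Olfactory bulb was the lower region at P1 and the higher at P14 for both genes. Grm5 turned from -4.16 to 1.96, Nr2f2 from -3.29 to 2.09, Npas3 from -2.38 to 1.21 and Nes from -2.64 to 1.31. In the opposite sense Dcc turned from 3.55 to -2.64 and Nrn1 from 1.94 to -5.56, where the P1 values are from the 6-library fit and the P14 values from the 19-library fit. Of the 620 genes, 48 belong to the gene lists, which held 441 genes tested at P1.

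**Figure D5:**
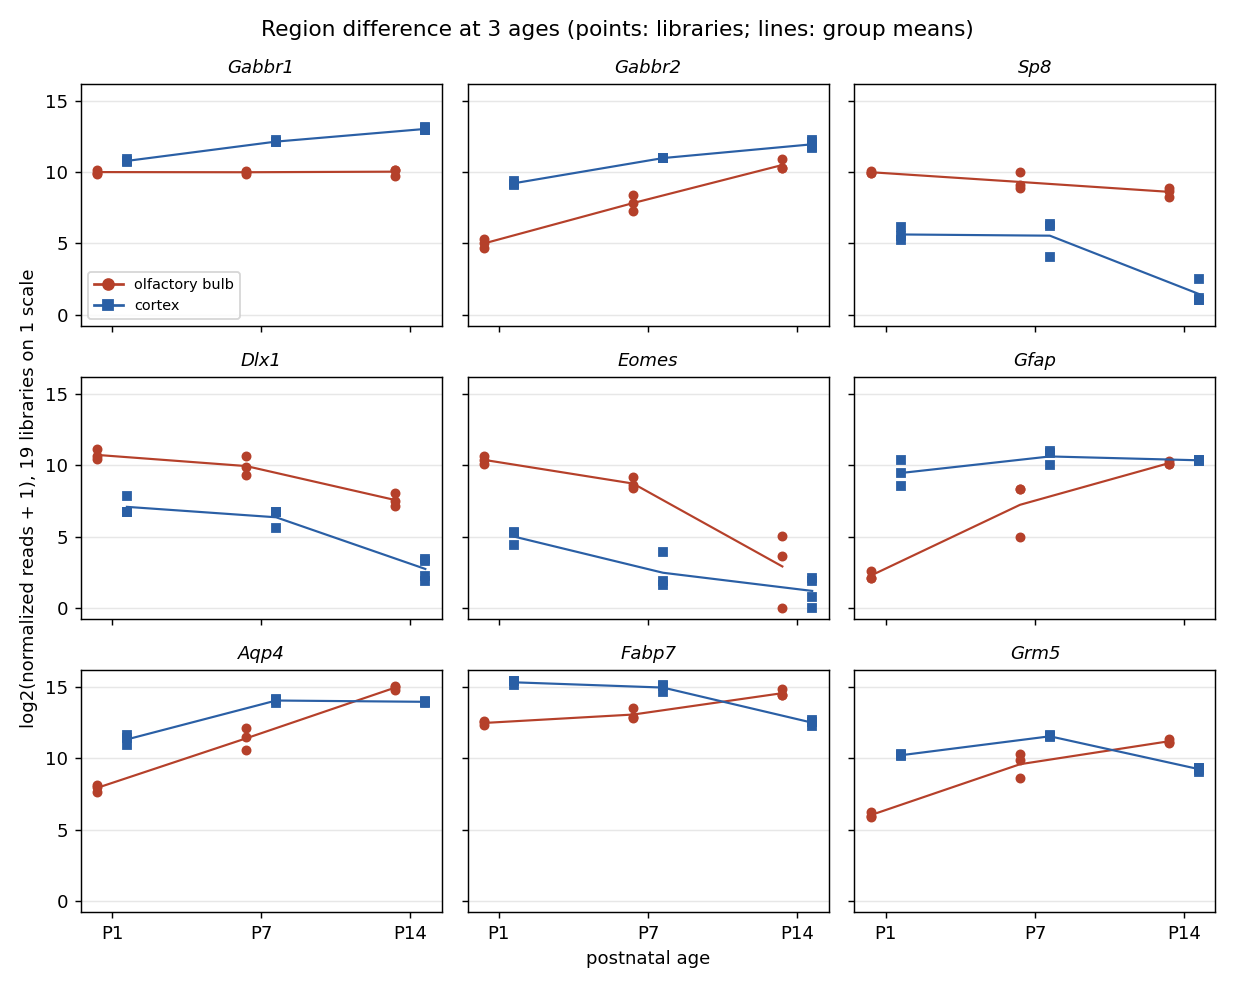
Levels of 9 genes at P1, P7 and P14 in olfactory bulb (circles) and cortex (squares), as log2(normalized reads + 1) on the scale of the 19 libraries, with 1 point per library and lines through group means. Gabbr1 is level in olfactory bulb while cortex climbs, Gfap meets cortex at P14, and Aqp4, Fabp7 and Grm5 cross.

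Region, deposited table, library-number range and read depth go together at P1, so they cannot be told apart. With reads thinned to equal totals 7062 genes were called, and of the 7716 genes called with all 6 libraries 5995 (77.7%) were called in every fit that left out 1 library.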

How the data were processed

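RNA-seq libraries of astrocytes were made with the Trio RNA-seq kit, per the labels' protocols, and the submitters' processing notes name STAR 2.5.0a, DESeq2 1.20.0, FastQC, MultiQC and the mouse build mm10, with no role or order. The counter, annotation and strand setting are not given in the sources used here. The deposited values are a normalized signal, whole reads divided by 1 size factor per library. Division by each library's smallest positive value returned whole reads for 100% of values (tolerance 0.05). Rn45s was left out, rows were joined by order, and 27 symbols that a spreadsheet had turned to dates were restored from the P28 cortex table, the only use of the P28 files.

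From these reads the libraries of each fit were scaled together by median ratio, genes with a mean of at least 10 were kept, and log2(value + 1) was tested with limma 3.58.1 (trend, Benjamini-Hochberg, R 4.3.3). P1 olfactory bulb against cortex used 6 libraries, the hippocampus comparison 9, and later ages and interactions 19. Where every library of a group held at most 3 reads of a gene, the fold was computed against a floor of 3 reads per library, which covers counting error only. Named genes are Gabbr1, Gabbr2, the 12 largest differences in each direction among called, non-overlapping genes above the median level, and members of 31 gene lists, some of which are not reported here. The members and lists were chosen with earlier results of these data known. The fits were tested on simulated data. Alternatives were edgeR 4.0.16, DESeq2 1.42.0, other scalings, filters, pseudocounts and call rules, and leaving out each library. Promoters are from RefSeq (GRCm38.p6).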

Additional observations from a re-analysis of the deposited data

Results flagged for a closer look

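The change with age of the olfactory bulb minus cortex difference was tested by an interaction term in limma for Gabbr1, Gabbr2 and the leading genes reported here, 24 in all, with p-values adjusted over all 12831 genes. Of these, 9 passed between P1 and P7 and 19 between P1 and P14, against 7.43% and 25.4% of all tested genes. The leading genes were picked for their large P1 difference, and the same P1 libraries enter the change. A move toward a smaller difference is therefore favoured by the choice, and the counts are no separate support for such a move. Each value below is the change of the log2 difference, positive where olfactory bulb moved upward relative to cortex.

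From P1 to P7 the difference moved upward for Gfap 3.80, Htra1 2.43, Dio2 1.90, Sparc 2.20, Ppp1r3c 2.22, Scrg1 1.52, Fgfr3 1.63 and Igfbp5 3.06, which were all lower in olfactory bulb at P1. It moved downward for Gabbr1 (-1.36), which was also lower at P1.

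From P1 to P14 it moved upward for Gabbr2 2.77, Sp8 2.79, Gfap 6.99, Htra1 4.55, Dio2 4.78, Nr2f1 1.76, Sparc 3.28, Ccdc80 3.27, Ppp1r3c 4.35, Scrg1 1.44, Fgfr3 3.50 and Igfbp5 2.69. Of these only Sp8 was higher in olfactory bulb at P1. It moved downward for Gabbr1 -2.21, Tfap2e -6.91, Barhl2 -6.72, Eomes -3.65, Cpm -2.79, Dusp4 -1.67 and Zic1 -1.81. Tfap2e and Barhl2 had no reads in any P14 library of either region, so their change is the loss of the P1 difference. The P14 olfactory bulb libraries were the shallowest of the 19, and the part of depth in these changes was not tested.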

How the results depend on the processing

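The P1 count of 7716 called genes ran from 7062 with reads thinned at random to equal totals (chosen after seeing the data) to 8168 without a filter on low values, apart from 5753 with a mean of at least 100, 3850 with at least a 2-fold difference and 4932 in the fit of the 19 libraries. The fold rule adds a requirement and the higher minimum leaves fewer genes to test; for the fit of 19 libraries the cause was not tested. edgeR called 7705 genes and DESeq2 7424. Leaving out 1 library gave 6714 to 7813 at P1, 3503 to 5194 at P7, 5159 to 6005 at P14 and 3307 to 4535 against hippocampus. The P14 count fell to 3748 with a mean of at least 100, where fewer genes are tested. The interaction count ran from 566 to 1372 for P7 (566 without P7 cortex replicate 2, 597 without P1 olfactory bulb replicate 2 and 635 without P1 cortex replicate 2) and from 2592 to 4026 for P14. None of the 24 leading genes nor Gabbr2 changed sign or call under any alternative run, and Gabbr1 missed only the 2-fold rule (-0.74). Of 451 genes in the lists or leading at P1, 161 changed call and 75 changed sign under at least 1 setting. Of the counts per list, 1187 stayed within 1.5 times and 115 did not. No paired analysis was possible because the library numbers of the regions differ and the replicate numbers only follow the order of the samples. Depth limits the low genes of olfactory bulb, and most of all its P14 libraries.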
